A study of Drosophila melanogaster with 18 samples.

Results

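Tig, mys, if, mew, scb, rhea and Ilk, the 7 genes described here, encode the integrin ligand Tiggrin, integrin subunits and proteins that link integrins to actin. Their 7 rows were found by symbol among the 17529 genes of the count table, and all 7 passed the filter on low counts. The genes were chosen with earlier results of these data known, and Tig is treated here as chosen for its large difference between scrib mutant and control discs, with the other genes added by function. The fold changes between scrib and control are therefore given as a description, with no test, for all 7 genes. For Tig the same holds wherever scrib or control libraries enter a comparison. The further lists of genes named below were also chosen with those results known. Their calls in scrib against control and in the interactions are therefore no independent evidence of a change.

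RNA was sequenced from eye-antennal discs of larvae in the third instar of Drosophila melanogaster, the epithelia that become the adult eye, antenna and much of the head. All 6 genotypes carried eyFLP, a recombinase source active in the eye primordium, and an FRT82B chromosome with a cell-lethal mutation over a second FRT82B chromosome. That second chromosome bore scrib1 (called scrib), scrib1 with CtBP87De-10 (CtBP scrib), scrib1 with fosKM (scrib fos), fosKM (fos), CtBP87De-10 (CtBP), or no further allele (control). Each genotype had 3 libraries, 18 in all, made from cells that had been sorted, with RNA of different sort days pooled. How cells were gated is not known here, each gene was mutated by a single allele, and cells in which no recombination took place may remain. The labels do not tie libraries to separate crosses, and the spread behind each p-value may therefore be technical.

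Integrins are receptors made of an α and a β subunit that bind the extracellular matrix and, through talin and a complex around integrin-linked kinase, hold it to the actin cytoskeleton. In the fly, mys encodes the main β subunit, βPS, which pairs with αPS1 (mew), αPS2 (if) or αPS3 (scb). They fasten epithelia to the basement membrane, the retina among them, and join muscles to tendon cells. Tiggrin is a secreted ligand of the αPS2 integrin, known from muscle attachment sites and from blood cells and fat body, which make it. The protein Scrib maintains apicobasal polarity, Fos (gene kay) is a subunit of AP-1, the transcription factor downstream of JNK, and CtBP is a transcriptional co-repressor.

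Libraries held 22294940 to 35510575 counts. Levels are given as CPM, the share of a gene in its library's counts scaled to a common total with TMM factors. The CtBP transcript was at 287 ± 8.05 CPM in CtBP and 343 ± 15.2 in CtBP scrib, against 822 ± 14.8 in control (SD, n = 3 each). The transcripts of scrib and kay were not a usable check, since neither allele has to lower its RNA: scrib was at 411 ± 50.0 CPM in scrib against 473 ± 11.8 in control, and kay at 103 ± 10.1 in fos against 109 ± 25.0 in control. All 7 eye-antennal disc markers (ey, eya, so, dac, Optix, Dll and ss) were detected in every genotype, with a summed level of 637 to 747 CPM in scrib, 332 to 413 in CtBP scrib and 1167 to 1177 in scrib fos, against 1239 to 1302 in control. Replicate 1 held the largest share of Hsp70 heat shock counts in each genotype, so results were also computed without it.

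Tig (FBgn0011722; 2L, dm6 positions 6415179 to 6423310, minus strand) was far more abundant in scrib and CtBP scrib discs than in control, and far less abundant in scrib fos. Its levels were 559, 453 and 431 CPM in the scrib libraries, against 50.4, 31.6 and 40.5 in control. In CtBP scrib they were 269, 342 and 365 CPM, and in scrib fos 13.3, 6.91 and 10.1. The libraries of scrib and CtBP scrib lay above every library of the other genotypes, and those of scrib fos lay below every other library.

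The remaining mutants had low Tig. Levels were 17.1, 23.4 and 18 CPM in fos, while CtBP libraries were at 21.0, 22.3 and 29.7 CPM. Neither group overlapped with control, whereas they overlapped with each other. By mean level the order was scrib (481), CtBP scrib (325), control (40.8), CtBP (24.3), fos (19.5) and scrib fos (10.1 CPM), and CtBP and fos were the only neighbours in that order whose libraries overlapped.

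As a description, Tig was 11.8-fold higher in scrib than in control (log2 fold change 3.56, SE 0.25) and 47.4-fold lower in scrib fos than in scrib (-5.57, SE 0.28). Against scrib, CtBP scrib differed by -0.56 (SE 0.22). Against control, fos differed by -1.06 (SE 0.24), CtBP by -0.75 (SE 0.24), scrib fos by -2.01 (SE 0.25) and CtBP scrib by 2.99 (SE 0.24). The value for CtBP scrib against scrib was -0.32 without replicate 1 of every genotype.

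Tests of Tig were made in the 3 comparisons that use neither scrib nor control libraries, with edgeR's quasi-likelihood test and Benjamini-Hochberg adjustment over 10834 genes. In the CtBP mutant background Tig was 13.4-fold higher with loss of scrib (CtBP scrib against CtBP, log2 fold change 3.74, SE 0.25, adjusted p = 2.91e-08). In the fos mutant background Tig instead fell with loss of scrib (scrib fos against fos, -0.95, SE 0.26, adjusted p = 0.0091). Between the double mutants, Tig was 32.1-fold lower in scrib fos than in CtBP scrib (-5.00, SE 0.27, adjusted p = 4.2e-09). In each of the 3, the groups did not overlap.

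**Figure D1:**
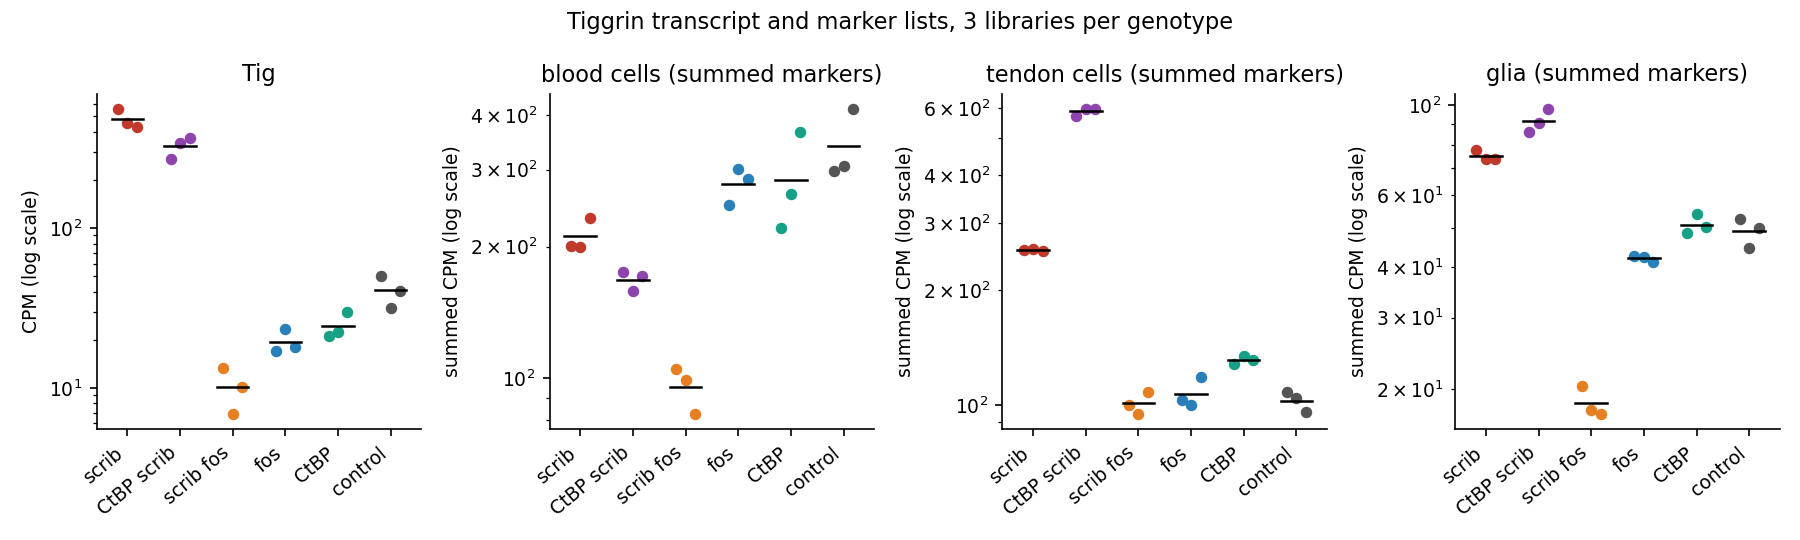
Level of Tig and summed levels of marker lists of blood cells (10 genes), tendon cells (3) and glia (4), in CPM on log axes, for the 6 genotypes. Points are the 3 libraries and lines their mean. Tig is at 269 to 559 CPM in scrib and CtBP scrib and at 6.91 to 50.4 in the other genotypes. The summed blood cell markers are lower in scrib and CtBP scrib than in control. In every genotype the largest part is slow in the tendon cell sum and moody in the glial sum. In the blood cell sum the largest part is PPO1 in control and crq in the other genotypes. Muscle and fat body lists are not plotted, and the part of these cell types in the level of Tig was not tested.

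Bulk RNA cannot tell fewer cells of a type from less RNA per cell, and Tig is made by blood cells, so markers of other cell types are given beside it. The 10 blood cell markers summed to 200 to 232 CPM in scrib and 158 to 175 in CtBP scrib, against 298 to 414 in control. In scrib 1 of them rose and 5 fell against control, where 53.5% of all tested genes were called (27.8% higher, 25.7% lower). In CtBP scrib 5 of the 10 fell against CtBP, where 55.5% were called (28.9% higher, 26.6% lower). Against control 9 of the 10 fell in CtBP scrib (median log2 fold change -1.11), where 59.4% were called (31.1% higher, 28.3% lower). In both genotypes with high Tig the summed blood cell markers were below every control library. The marker PPO1 was at 18.5 ± 6.32 CPM in scrib against 84.7 ± 27.8 in control. In the same comparison crq rose (log2 fold change 0.19, adjusted p = 0.0244), and NimC1, NimC2, He and Sr-CI were not called. The part of blood cells in the high Tig of scrib and CtBP scrib was not tested.

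In scrib fos the blood cell markers were low as well, at a summed 82.8 to 105 CPM against 249 to 301 in fos, and 9 of 10 fell (median log2 fold change -3.34, against -0.01 over all tested genes). Most of the sum in scrib fos was crq, at a mean of 79.4 CPM against 75.6 in fos. This was the marker that was not called (log2 fold change 0.07, adjusted p = 0.414), so the sum understates the fall of the others. The hemocyte receptor gene NimC1 was at 0.690 ± 0.162 CPM in scrib fos against 10.3 ± 1.71 in fos. The part of these markers in the lower Tig of scrib fos was not tested. The 11 muscle and myoblast markers summed to 519 to 539 CPM in scrib, 592 to 658 in CtBP scrib and 358 to 394 in scrib fos, against 668 to 709 in control. The largest part was sls, at 353 ± 4.82 CPM in control, and single markers went other ways. The myosin light chain gene Mlc2 was at 84.3 ± 12.2 CPM in scrib, 133 ± 7.56 in CtBP scrib and 18.8 ± 1.47 in scrib fos, against 46.5 ± 6.21 in control. In scrib against control 2 of the 11 rose and 3 fell, with 53.5% of all tested genes called (27.8% higher, 25.7% lower). In scrib fos against control 0 rose and 8 fell, with 46.6% of all tested genes called (22.1% higher, 24.5% lower). In CtBP scrib against control 4 of the 11 rose and 3 fell, with 59.4% of all tested genes called (31.1% higher, 28.3% lower). The part of muscle cells and myoblasts in the level of Tig was not tested.

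The summed levels of tendon cell and glial markers, each mostly set by 1 gene, were higher in scrib and CtBP scrib than in control. The 3 measured tendon cell markers summed to 253 to 256 CPM in scrib, 571 to 597 in CtBP scrib and 94.9 to 108 in scrib fos, against 95.6 to 108 in control. Most of this was slow, whose product binds thrombospondin at tendons. The tendon regulator sr was at 14.7 ± 1.29 CPM in scrib against 9.39 ± 1.30 in control (log2 fold change 0.64, adjusted p = 4.65e-05), whereas Lrt was not called there (-0.17, adjusted p = 0.107) and fell in CtBP scrib against control (-0.82, adjusted p = 1.03e-07). The 4 glial markers summed to 73.7 to 77.6 CPM in scrib, 85.8 to 98.1 in CtBP scrib and 17.4 to 20.3 in scrib fos, against 44.5 to 52.6 in control. Most of this sum was moody, at 66.5 ± 3.16 CPM in scrib and 83.0 ± 4.72 in CtBP scrib, against 29.2 ± 3.50 in control. The glial regulator repo fell against control in scrib (-1.83, adjusted p = 8.75e-11) and in CtBP scrib (-2.44, adjusted p = 1.78e-12), and the median of the 4 was -0.25 and -0.24 in these comparisons, against 0.01 over all tested genes. The 6 fat body markers summed to 1.39 to 6.43 CPM in scrib, 5.99 to 15.7 in CtBP scrib and 2.29 to 29.1 in scrib fos, against 12.7 to 41.0 in control. The part of tendon cells and glia in the level of Tig was not tested. No marker was at 0 counts over a genotype other than Lsp1gamma of the fat body, which was at 0 in scrib, CtBP scrib and control.

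Tig overlaps CG13982 on the opposite strand by 157 bases of exon, and whether counting used strand is not known here, so reads in that overlap could belong to either. Over the 18 libraries CG13982 had 0.845% to 6.90% as many counts as Tig.

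The β subunit gene mys (FBgn0004657; X, 8061645 to 8070237, plus strand) was also high in both scrib and CtBP scrib, at a smaller scale. It was at 514, 480 and 452 CPM in scrib and 473, 507 and 512 in CtBP scrib, against 296, 298 and 286 in control. Levels were 294, 298 and 305 CPM in scrib fos and 273, 278 and 287 in fos. The CtBP libraries had 270, 278 and 279 CPM. Every scrib and CtBP scrib library lay above every library of the remaining 4 genotypes.

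The log2 fold change of mys in scrib against control was 0.72 (SE 0.05). It rose by 0.85 in CtBP scrib against CtBP (SE 0.05, adjusted p = 6.32e-12) and fell in scrib fos against scrib (-0.69, SE 0.05, adjusted p = 5.55e-10). The difference of mys was 0.10 between scrib fos and fos (SE 0.05, adjusted p = 0.104) and 0.04 between CtBP scrib and scrib (SE 0.05, adjusted p = 0.61).

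**Figure D2:**
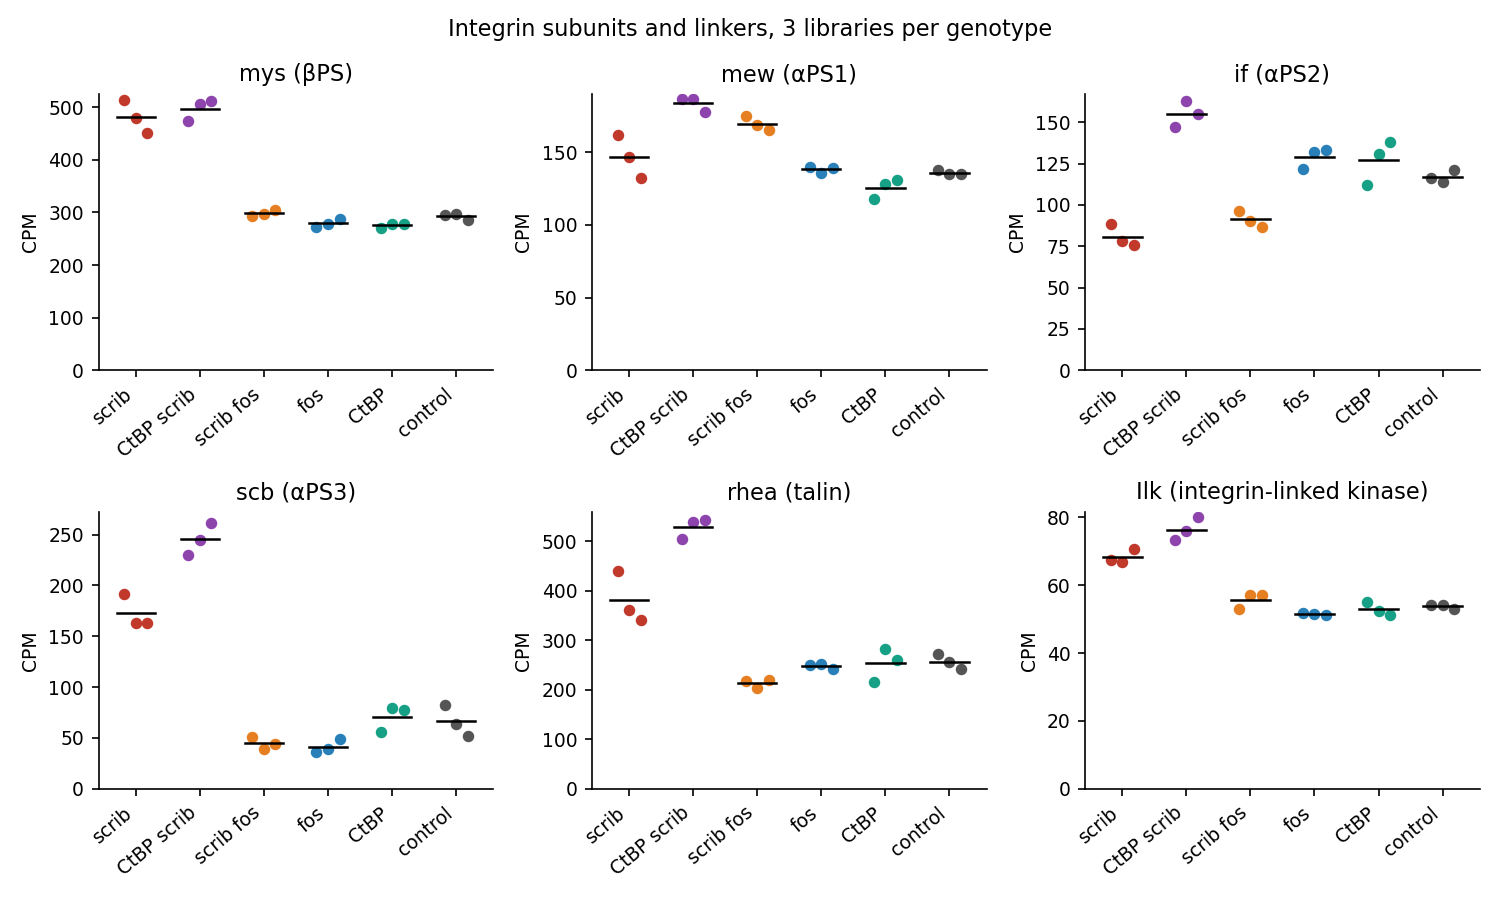
Levels in CPM of the β subunit gene mys, the α subunit genes mew, if and scb, and the linker genes rhea and Ilk in the 6 genotypes. Points are the 3 libraries and lines their mean, and each axis starts at 0. For mys, scb, rhea and Ilk the scrib and CtBP scrib libraries lie above all others, while if is at 75.8 to 88.2 CPM in scrib and 147 to 163 in CtBP scrib.

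The 3 α subunit genes went different ways. The αPS3 gene scb (FBgn0286785; 2R, 15248784 to 15258498, plus strand) was at 192, 163 and 163 CPM in scrib and 230, 245 and 261 in CtBP scrib, against 82.5, 63.8 and 52.3 in control. It was at 50.8, 39.6 and 43.7 CPM in scrib fos and 36.3, 38.8 and 49.2 in fos. The CtBP libraries had 55.4, 79.3 and 77.5 CPM. Its scrib and CtBP scrib libraries overlapped with no other genotype, and those of scrib fos and fos overlapped with each other.

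In scrib against control scb differed by 1.38 (SE 0.18). It rose by 1.79 in CtBP scrib against CtBP (SE 0.18, adjusted p = 1.47e-06) and fell in scrib fos against scrib (-1.95, SE 0.18, adjusted p = 1.62e-06). Between scrib fos and fos the difference was 0.11 (SE 0.18, adjusted p = 0.647). In fos against control it was -0.68 (SE 0.18, adjusted p = 0.14), which passed the threshold with DESeq2 (-0.67, adjusted p = 0.0207). The gene lies on arm 2R, which held 49 of the 108 genes called in fos against control (45.4%, against 20.3% of all tested genes).

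The αPS2 gene if (FBgn0001250; X, 16752189 to 16783434, minus strand) encodes the subunit that binds Tiggrin. Its levels were 88.2, 77.9 and 75.8 CPM in scrib and 96.6, 90.5 and 86.9 in scrib fos, against 116, 114 and 121 in control. In CtBP scrib they were 147, 163 and 155 CPM, against 112, 131 and 138 in CtBP. So if was low in scrib, where Tig was highest, and also low in scrib fos, where Tig was lowest.

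In scrib against control if differed by -0.53 (SE 0.07). With loss of scrib, if was lower in the fos background (scrib fos against fos, -0.50, SE 0.07, adjusted p = 1.02e-05) and higher in the CtBP background (CtBP scrib against CtBP, 0.29, SE 0.07, adjusted p = 0.00179). In CtBP scrib it was higher than in scrib (0.94, SE 0.07, adjusted p = 6.44e-09). Against scrib, if differed in scrib fos by 0.18 (SE 0.07, adjusted p = 0.0533), a value that passed the threshold with DESeq2 size factors (adjusted p = 0.0316), the DESeq2 Wald test (0.0266), no filter (0.0139) or a filter of 5 CPM (0.0338). It also passed without scrib replicate 1 (0.0114), scrib fos replicate 3 (0.0453) or replicate 1 of every genotype (0.00619).

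The αPS1 gene mew (FBgn0004456; X, 13214409 to 13258490, minus strand), whose subunit binds laminin, varied least of the α genes. It was at 162, 147 and 132 CPM in scrib, 187, 187 and 178 in CtBP scrib and 175, 169 and 165 in scrib fos, against 138, 135 and 135 in control. The scrib libraries overlapped with control, and those of CtBP scrib and scrib fos did not. It differed by 0.11 in scrib against control (SE 0.06). It rose in scrib fos against fos (0.30, SE 0.06, adjusted p = 2.47e-04) and in CtBP scrib against CtBP (0.55, SE 0.06, adjusted p = 6.16e-08), and it was higher in scrib fos than in scrib (0.21, SE 0.06, adjusted p = 0.00665). In that last comparison it missed the threshold when only the compared groups were fitted (adjusted p = 0.0558).

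Of the linkers, rhea (FBgn0260442; 3L, 8545001 to 8574409, plus strand) encodes talin, which binds the β tail and actin. It was at 439, 361 and 341 CPM in scrib and 504, 539 and 542 in CtBP scrib, against 273, 255 and 242 in control. It was at 218, 203 and 219 CPM in scrib fos and 250, 251 and 242 in fos, and at 216, 282 and 261 CPM in the CtBP libraries. The scrib and CtBP scrib libraries again lay above the rest, and scrib fos lay below fos in every library. The log2 fold change in scrib against control was 0.57 (SE 0.09). It rose in CtBP scrib against CtBP (1.06, SE 0.09, adjusted p = 7.63e-09) and against scrib (0.47, SE 0.09, adjusted p = 6.48e-04), and fell in scrib fos against scrib (-0.83, SE 0.09, adjusted p = 5.12e-07).

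Ilk (FBgn0028427; 3L, 21216901 to 21219240, plus strand) encodes integrin-linked kinase, a pseudokinase that scaffolds the complex. It was at 67.3, 66.8 and 70.7 CPM in scrib and 73.2, 75.8 and 80.1 in CtBP scrib, against 54.1, 54.2 and 53.1 in control. In scrib fos it was at 53.0, 57.1 and 57.0 CPM, against 51.7, 51.4 and 51.2 in fos. It had the narrowest range of the genes that were high in scrib, with a log2 fold change of 0.34 (SE 0.04) in scrib against control, and its scrib and control libraries did not overlap. It rose by 0.53 in CtBP scrib against CtBP (SE 0.04, adjusted p = 1.83e-09) and fell in scrib fos against scrib (-0.29, SE 0.04, adjusted p = 1.52e-05). Its rises in scrib fos against fos (0.11, adjusted p = 0.0377) and in CtBP scrib against scrib (0.16, adjusted p = 0.0107) were less firm. The first was lost without any 1 of fos replicates 1 to 3 or scrib fos replicates 2 and 3 (adjusted p from 0.0698 to 0.122), the second without CtBP scrib replicate 3 (0.0793) or scrib replicate 2 (0.0531).

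**Figure D3:**
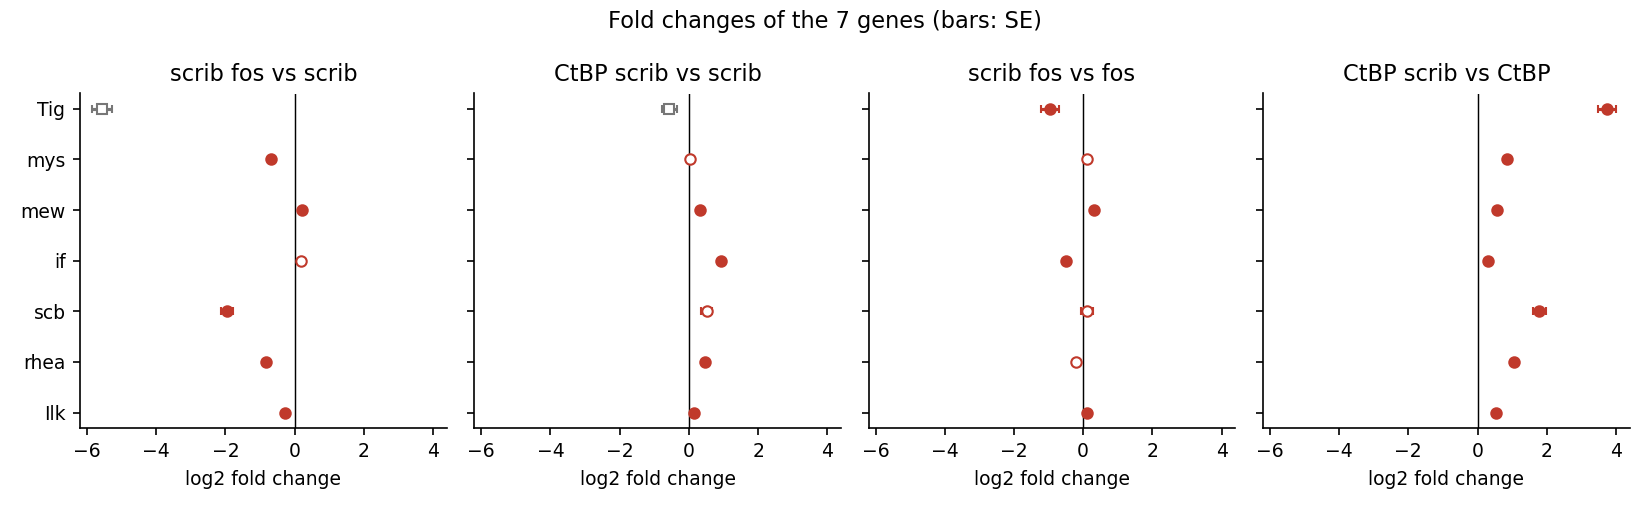
Log2 fold changes of the 7 genes in 4 comparisons, with bars for the standard error. Filled circles passed an adjusted p of 0.05, open circles did not, and grey squares are values of Tig given without a test. In CtBP scrib against CtBP all 7 genes are above 0, whereas in scrib fos against fos they lie between -0.95 and 0.30.

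Counted over the 6 genes other than Tig, all 6 rose in CtBP scrib against CtBP, where 55.5% of all tested genes were called, 28.9% higher and 26.6% lower. Against scrib, scrib fos had mys, scb, rhea and Ilk lower and mew higher, with 37.8% of all genes called (17.6% higher, 20.2% lower). Against fos, it had mew and Ilk higher and if lower, 3 of 6, with 47.4% of all genes called (23.0% higher, 24.4% lower), a share near that of the 6. There rhea differed by -0.21 (SE 0.09, adjusted p = 0.057) and passed when only the compared groups were fitted (0.00555), and mys passed with DESeq2 (0.0473). Against scrib, CtBP scrib had if, mew, rhea and Ilk higher, 4 of 6, with 18.7% of all genes called (9.57% higher, 9.14% lower). There scb differed by 0.51 (SE 0.17, adjusted p = 0.0621), a value that passed with DESeq2 (0.0315) and without replicate 1 of every genotype (0.0025).

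Between the double mutants, 5 of 6 were lower in scrib fos than in CtBP scrib, all but mew (-0.11, SE 0.06, adjusted p = 0.103), with 49.2% of all genes called (23.2% higher, 26.0% lower). Compared with control, all 6 rose in CtBP scrib, where 59.4% of all genes were called (31.1% higher, 28.3% lower). In scrib fos 4 of 6 were called against control, with 46.6% of all genes called (22.1% higher, 24.5% lower). These were mew, which rose by 0.32 (SE 0.06, adjusted p = 1.25e-04), and if (-0.35, SE 0.07, adjusted p = 3.87e-04), scb (-0.57, SE 0.18, adjusted p = 0.0205) and rhea (-0.26, SE 0.09, adjusted p = 0.0215), which fell. The calls of scb and rhea ended without control replicate 1 (0.101 and 0.0905) or scrib fos replicate 2 (0.0739 and 0.0799), and that of scb also without scrib fos replicate 3 (0.0617).

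None of the 6 was called by edgeR in fos against control (0.997% of all genes were, 0.258% higher and 0.738% lower) or in CtBP against control (14.5%, with 7.46% lower). Before adjustment, 1 of them (scb) was below 0.05 in fos and 0 were in CtBP, and DESeq2 called 1 and 0. In CtBP, if was called without CtBP replicate 1 (0.21, adjusted p = 0.0433), and if and scb without replicate 1 of every genotype (0.20 and 0.43, adjusted p = 0.0205 and 0.0365).

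The difference of the scrib effect between backgrounds is given as a description, since it contains the scrib minus control values, which are not tested here. With fosKM it was -1.27 for scb (SE 0.25), -0.78 for rhea (SE 0.13), -0.62 for mys (SE 0.07) and -0.23 for Ilk (SE 0.06), on the log2 scale. It was 0.03 for if (SE 0.10), 0.19 for mew (SE 0.08) and -4.50 for Tig (SE 0.35). Over all tested genes 23.2% were called in this term, 10.6% higher and 12.7% lower.

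With CtBP87De-10 the difference was 0.82 for if (SE 0.10), 0.49 for rhea (SE 0.13) and 0.44 for mew (SE 0.08). It was 0.41 for scb (SE 0.25), 0.18 for Ilk (SE 0.06), 0.13 for mys (SE 0.07) and 0.19 for Tig (SE 0.32). Over all tested genes 10.5% were called in this term, 5.43% higher and 5.06% lower.

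Levels of different genes were compared per kilobase of exon. In control, mys stood highest at 65.4 ± 1.42 CPM per kb, followed by mew (26.1 ± 0.392), Ilk (24.2 ± 0.278), rhea (23.1 ± 1.43), if (19.4 ± 0.590), scb (13.2 ± 3.04) and Tig (5.82 ± 1.34; SD, n = 3). The libraries of Ilk and rhea overlapped in this order. In scrib, Tig came next after mys, at 68.5 ± 9.73 against 108 ± 6.85 CPM per kb, and scb (34.5 ± 3.34) exceeded mew (28.3 ± 2.94) and if (13.4 ± 1.11). In scrib fos, Tig was the lowest of the 7 at 1.44 ± 0.458 CPM per kb.

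The make-up of the α transcripts is given as shares. Of the summed CPM per kb of mew, if and scb, the scb share was 45.3% ± 1.03 in scrib, 44.5% ± 1.79 in CtBP scrib and 15.7% ± 1.35 in scrib fos, against 14.7% ± 1.84 in fos, 23.7% ± 2.23 in CtBP and 22.4% ± 3.97 in control. The if share was lowest in scrib, at 17.6% ± 0.238, with 23.4% ± 0.727 in CtBP scrib and 26.8% ± 0.430 in scrib fos, against 33.1% ± 2.36 in control. The mew share was highest in scrib fos, at 57.5% ± 1.22 against 44.5% ± 1.67 in control. The ratio of mys to this α sum was 1.41 ± 0.0478 in scrib, 1.01 ± 0.0130 in CtBP scrib and 1.18 ± 0.0728 in scrib fos, against 1.11 ± 0.0477 in control (SD, n = 3 each). These shares hold for RNA only, and an exact permutation test of 3 libraries against 3 cannot reach a p below 0.10, so none is given.

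**Figure D4:**
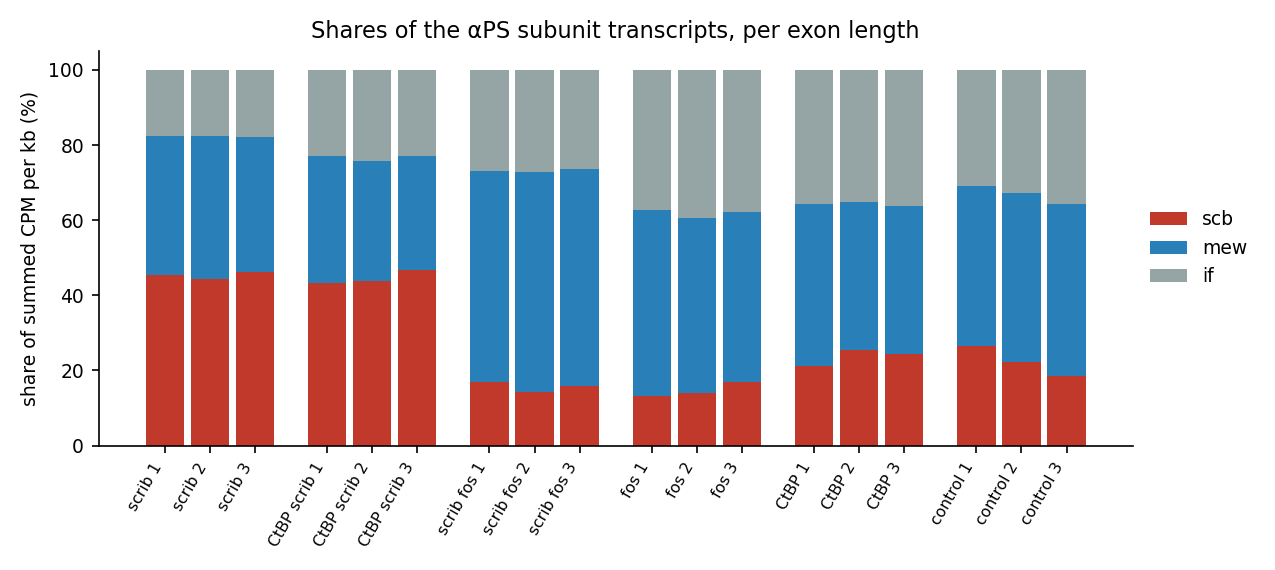
Shares of scb, mew and if in their summed level (CPM per kilobase of exon, in percent) in each of the 18 libraries, grouped by genotype. The scb share is 44.2% to 46.2% in the scrib libraries and 43.3% to 46.6% in CtBP scrib, against 18.5% to 26.4% in control.

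The remaining integrin subunit genes were expressed at low levels. ItgaPS4, which encodes another α subunit and lies just downstream of scb on the same strand, was at 4.13 ± 0.453 CPM in scrib, 6.73 ± 1.52 in CtBP scrib and 1.03 ± 0.228 in scrib fos, against 2.34 ± 0.631 in control. It rose in scrib against control (0.82, SE 0.21, adjusted p = 0.00252) and in CtBP scrib against CtBP (2.15, SE 0.21, adjusted p = 3.28e-08), and fell in scrib fos against scrib (-2.01, SE 0.23, adjusted p = 5.57e-07). Itgbn, the βν subunit gene, fell in scrib against control (-0.83, SE 0.17, adjusted p = 4.59e-04). ItgaPS5 differed by -0.25 there (SE 0.14, adjusted p = 0.135). In fos against control ItgaPS4 was lower (-1.35, SE 0.25, adjusted p = 0.00561), another gene of arm 2R.

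Among 7 other matrix ligands, Tsp stood out. It encodes thrombospondin, a ligand of αPS2 integrin at tendons, and averaged 174 ± 15.1 CPM in scrib and 53.3 ± 3.66 CPM in control (log2 fold change 1.70, adjusted p = 3.03e-10). It also rose in CtBP scrib against CtBP (1.40, SE 0.10, adjusted p = 2.38e-09) and fell in scrib fos against scrib (-1.52, SE 0.10, adjusted p = 2.53e-09). Of the laminin genes, wb (-0.69, adjusted p = 1.93e-05) and LanA (-0.30, adjusted p = 0.00568) fell in scrib against control. In all, 1 ligand gene rose and 3 fell in scrib, with 53.5% of all tested genes called (27.8% higher, 25.7% lower).

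The collagen IV genes vkg and Col4a1, basement membrane components also made by blood cells, fell in scrib fos against scrib (-1.85 and -1.98, adjusted p = 7.32e-06 and 9.89e-06) and against fos (-1.99 and -2.19, adjusted p = 3.58e-06 and 3.62e-06). The level of vkg was 9.36 ± 0.698 CPM in scrib fos, against 33.9 ± 2.30 in scrib and 37.1 ± 3.93 in fos. Blood cell markers fell in the same comparisons, as given above, and their part in this was not tested.

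Of 17 genes of the adhesion complex, 10 rose and 5 fell in scrib against control (median log2 fold change 0.28, against 0.01 over all tested genes, of which 53.5% were called, 27.8% higher and 25.7% lower). Pax, which encodes the adaptor paxillin, rose by 1.57 (SE 0.06, adjusted p = 1.75e-14; 269 ± 8.26 CPM in scrib against 90.8 ± 7.26 in control), and Zasp52, an actin-associated PDZ and LIM protein, by 1.11 (SE 0.07, adjusted p = 3.15e-11). The Src family kinase gene Src64B fell (-0.95, SE 0.06, adjusted p = 5.04e-11). In CtBP scrib against CtBP 11 rose and 4 fell, where 55.5% of all genes were called. The smallest p-values were those of Pax (1.91, adjusted p = 3.71e-16), the tensin gene by (1.02, adjusted p = 3.37e-14) and ics (0.98, adjusted p = 1.41e-13), which encodes the Ras suppressor protein of the integrin-linked kinase complex.

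Against fos, scrib fos had 2 of the 17 higher and 6 lower, a share near the 47.4% of all genes called there. The gene by rose there (0.59, SE 0.04, adjusted p = 8.67e-10), and Src64B (-0.67, adjusted p = 2.02e-08) and CAP (-0.92, adjusted p = 5.54e-08), an adaptor that binds vinculin, fell. Against scrib it had 10 lower and 1 higher (median -0.26, against -0.00 over all genes, of which 37.8% were called), with Pax at -1.72 (adjusted p = 1.62e-14), ics at -0.66 (adjusted p = 2.8e-10) and Zasp52 at -0.99 (adjusted p = 3.77e-10). The interaction of scrib with fos was negative for 8 and positive for 1 (for none without replicate 1 of control, fos or scrib fos), where 23.2% of all genes were called, with Pax at -1.50 (SE 0.08, adjusted p = 7.37e-11). Against scrib, CtBP scrib had 10 of the 17 higher, where 18.7% of all genes were called and 9.57% were higher. The smallest p-values were those of the gene by (0.49, adjusted p = 2.6e-08), ics (0.48, adjusted p = 6.6e-08) and the scaffold gene p130CAS (0.51, adjusted p = 2.4e-07).

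**Figure D5:**
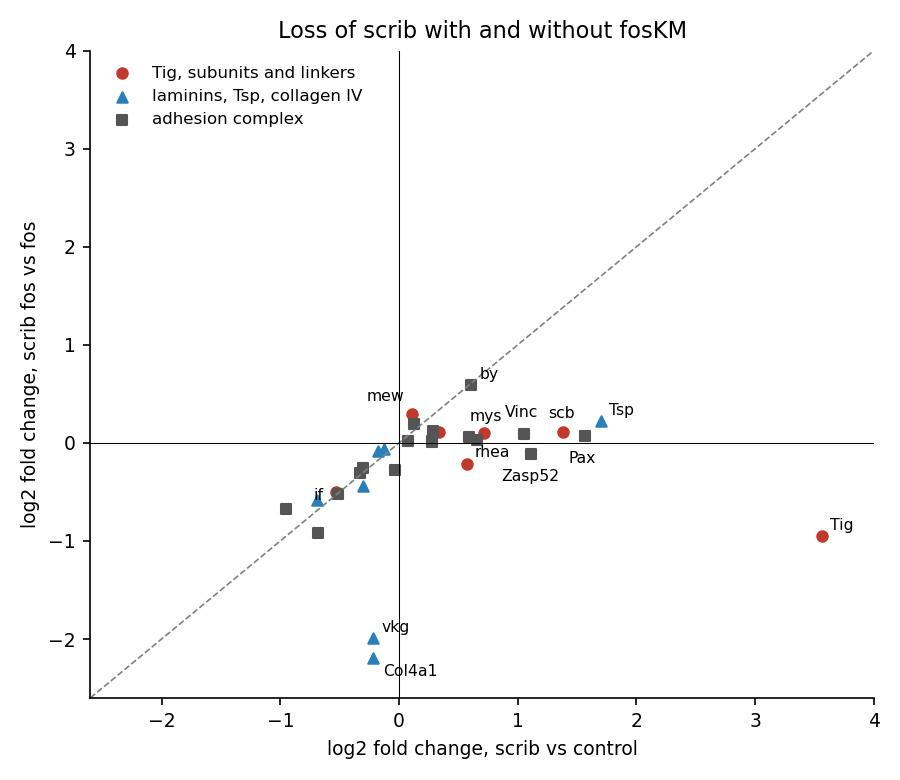
Log2 fold change with loss of scrib in the fos mutant background (scrib fos against fos, vertical axis) and in the control background (scrib against control, horizontal axis) for the 7 genes, 7 other matrix ligands and 17 genes of the adhesion complex. Each point is a gene, and on the dashed line both changes are equal. Tig, scb, mys, rhea, Tsp, Pax, Vinc and Zasp52 lie well to the right of 0 but at -0.95 to 0.22 on the vertical axis, while if and by lie near the line.

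The genes whose log2 CPM followed Tig most closely over the 18 libraries, of 5042 with a symbol and at least 10 CPM in a genotype, were Sk1 (Pearson's r = 0.989), sn (0.981), Tmem63 (0.978), stac (0.975) and Tbcd (0.973). The sphingosine kinase gene Sk1 was at 11.9 CPM in scrib, 10.7 in CtBP scrib and 0.800 in scrib fos, against 2.39 in control. The gene sn, for the actin bundler fascin, was at 342, 305 and 194 CPM in these mutants, against 236 in control. For mys the closest were Vinc (0.991), which encodes vinculin, a binding partner of talin, Rcd2 (0.990) and the annexin gene AnxB11 (0.990). The correlation with Tig was 0.94 for scb, 0.93 for mys, 0.90 for rhea and 0.86 for Ilk, against 0.31 for mew and -0.01 for if. Ranked by this correlation among 7490 genes with at least 10 CPM in a genotype, scb was 106, mys 143, rhea 270 and Ilk 457. All these points share libraries and genotypes, and the values describe them with no test.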

How the data were processed

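The deposited table holds raw read counts per FlyBase gene, whole numbers with a different total in each library. The submitters' processing notes name dm6 as the build and list featureCounts, Subread and edgeR as the authors' tools, and neither their versions nor the strand setting is known here. Of 17529 genes, 17425 were matched by identifier to symbol, position and exon length in the Ensembl annotation of dm6. All 18 count columns were matched to a sample.

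The test was the 2-sided quasi-likelihood F-test of edgeR 4.0.16 under R 4.3.3, after filterByExpr by genotype and TMM scaling, in a robust fit of all 18 libraries with genotype as the factor. Of the genes, 10834 were tested and 6695 removed. The biological coefficient of variation was 8.88%, with 12 residual degrees of freedom. P-values were adjusted by Benjamini-Hochberg over all tested genes and called below 0.05. Each SE is the absolute log2 fold change over the root of F. CPM uses TMM-scaled totals, and for correlations 2 was the prior count of log2 CPM. The fit was also tested on simulated data with known changes.

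Members and lists were chosen with earlier results of these data known. Calls of list genes in scrib against control or in an interaction are not independent of that choice. The text names all 7 genes, and of each list up to 3 called genes with the smallest p in a comparison, with the correlates of Tig (5) and mys (3). The markers PPO1, NimC1, NimC2, He, Sr-CI, crq, sr, slow, Lrt, repo, moody, sls and Mlc2 were singled out after their values were seen. The lists were the 7 ligands LanA, LanB1, LanB2, wb, Tsp, vkg and Col4a1, the 3 other subunits and 17 adhesion complex genes. Marker lists were of blood cells, muscle and myoblasts, tendon cells (tx was not matched), fat body, glia and eye-antennal disc.

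Replicates of a genotype differed by more than sampling noise. The ratio of chi-square to its degrees of freedom was 4.20 to 17.5 between replicates 2 and 3. In pairs with replicate 1 the ratio was 25.2 to 127. Same-numbered libraries deviated together in 15 of 45 pairs (correlation above 0.1), with all 3 numbers above it only between scrib and control (0.12 to 0.14), so no replicate block was used. Alternatives were DESeq2 1.42.0, its size factors, other filters, the compared groups alone, a replicate block, leaving out each library, and leaving out replicate 1 of every genotype. Sequences were not used here.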

Additional observations from a re-analysis of the deposited data

Results flagged for a closer look

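For 7 values, the interaction term of the edgeR fit passed an adjusted p of 0.05, and they were picked for that. Of the 6 genes other than Tig, 4 passed with fosKM, against 23.2% of all tested genes. For CtBP87De-10 the count was 3 of 6, against 10.5% of all tested genes. Each of the 7 values contains the scrib minus control difference, which bears on how the genes were chosen. The values and the counts are therefore a description, and no p is given. The counts are no test of an excess over the share of all genes. With fosKM the scrib effect, on the log2 scale, differed by -1.27 for scb, -0.78 for rhea, -0.62 for mys and -0.23 for Ilk. With CtBP87De-10 it differed by 0.82 for if, 0.49 for rhea and 0.44 for mew. For if, the libraries moved in opposite directions, with all 3 CtBP scrib libraries above all 3 CtBP libraries and all 3 scrib libraries below all 3 control libraries.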

How the results depend on the processing

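Of 342 tested values of a gene in a comparison with 1 library left out, 327 stayed on the same side of the threshold, 12 lost their call and 3 gained one. Direction changed in 0 of the 216 values called with all libraries and in 3 of those not called. With a replicate block all 57 tested values stayed on the same side, among them Tig at -0.96 in scrib fos against fos. With DESeq2 size factors 1 call was gained and none lost, and no median over all genes moved by more than 0.03. Of the 6 genes other than Tig, DESeq2 called 1 in fos against control, against 0 with edgeR. In CtBP against control 2 were called without replicate 1 of every genotype, and 0 to 1 with single libraries left out, the 1 being without CtBP replicate 1. In scrib fos against control the count was 2 to 4 with single libraries left out, the 2 being without control replicate 1 or scrib fos replicate 2. Without replicate 1 of every genotype Tig stood at 3.29 in CtBP scrib against control and at -4.89 in the interaction of scrib with fos. The causes of these changes were not tested. The control libraries of scb ranged from 52.3 to 82.5 CPM, a spread that limits what can be said of its small differences.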
